A study of Homo sapiens with 48 samples.

Results

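The genes described here are 9 immune mediators that pancreatic tumour cells can make or carry: the cytokines IL6, IL11 and LIF, the macrophage growth factor CSF1, the interleukin 1 family members IL1A, IL1B and IL18, the GITR ligand TNFSF18, and IL1RL1, the receptor of IL33. They are 9 of 36843 genes in the count table and were taken by symbol. They were chosen by earlier results on these same libraries, at least for CSF1 in ASPC1 and for IL1RL1 and TNFSF18 in CFPAC1 under siRNA against ZNF274, so the siZNF274 comparisons are given as a description without p-values.

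The series holds 48 samples, of which 30 are RNA-seq libraries from 3 established human pancreatic ductal adenocarcinoma lines, 3 libraries to each of 10 groups. Both ASPC1 and CFPAC1 were studied as cells treated with azacitidine (AZA) at 5 µM, an inhibitor of DNA methyltransferases, cells transiently given an siRNA against the zinc finger repressor ZNF274 (siZNF274), cells given a control siRNA (siCTRL), and cells given the solvent DMSO. Panc3.27, described in the design text as low in endogenous ZNF274, was studied as cells overexpressing ZNF274 (OE) and control cells (called vector here). No source at hand states the exposure times of the RNA-seq groups, and each line is a single line, so the values speak of these cultures. Replicates are described as biological, without a word on separate cultures, so the p-values measure only the spread between these samples. The other 18 samples are CUT&RUN profiles of ASPC1 with a control hairpin (shCTRL) or one against ZNF274 (shZNF274), given doxycycline at 1 µg/ml for 9 days. From these, only the list of peaks of the repressive histone mark H3K9me3 was used.

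IL6, IL11 and LIF signal through the shared receptor subunit gp130 (IL6ST), each with its own partner receptor, and activate the kinase JAK and the transcription factor STAT3. CSF1 drives macrophage survival through CSF1R. IL1A and IL1B act through IL1R1 and its accessory chain IL1RAP, and IL1RN blocks them, while IL1B and IL18 are made as precursors that caspase 1 (CASP1) can cut. IL1RL1, also called ST2, pairs with IL1RAP to bind IL33 and also exists as a secreted decoy form. TNFSF18 is a membrane ligand that stimulates T cells through its receptor GITR (TNFRSF18). In pancreatic tumours, LIF and IL6 are studied as messengers between tumour cells and fibroblasts, and interleukin 1 as a signal that turns fibroblasts inflammatory.

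Library totals ran between 31415743 and 43383141 counts. The siZNF274 label was not matched by less ZNF274 mRNA, which averaged 19.4 ± 2.93 CPM (counts scaled by library size within a line; SD, n = 3) in the libraries so labelled of ASPC1 against 17.6 ± 2.62 CPM with siCTRL, and 32.8 ± 1.47 CPM in those of CFPAC1 against 34.4 ± 1.12 CPM with siCTRL (edgeR adjusted p = 0.305 and 0.423). With OE it averaged 136 ± 2.90 CPM, against 49.1 ± 1.54 CPM with the vector. Scaled over all 30 libraries, ZNF274 mRNA averaged 46.2 CPM in Panc3.27 with the vector. It averaged 27.9 CPM in CFPAC1 and 14.4 CPM in ASPC1 with DMSO. At the mRNA level Panc3.27 was thus not the low line that the design text describes. All 8 ductal epithelial markers (EPCAM, KRT7, KRT8, KRT18, KRT19, CDH1, ELF3 and CLDN4) averaged at least 1 CPM in every group. Their sum moved without overlap in ASPC1, at 9737 to 10037 CPM with AZA and 10051.5 to 11407 CPM with siCTRL, against 13983 to 15679 CPM with DMSO, and at 7375 to 8114 CPM under the siZNF274 label. With AZA in ASPC1, 6 of the 8 were lower and 1 higher. The 7 mast cell and ILC2 markers, cells known for IL1RL1, summed to at most 0.426 CPM in any library. Other lists moved with the groups: 8 endothelial markers summed to between 5.96 and 6.3 CPM with AZA and between 1.15 and 1.44 CPM with DMSO in ASPC1, and to between 56.6 and 60.4 CPM with OE and between 31.9 and 32.4 CPM with the vector. In CFPAC1 the endothelial markers summed to between 38.3 and 41.6 CPM under the siZNF274 label and between 18.6 and 20.9 CPM with siCTRL. The 10 fibroblast markers summed to between 57.3 and 59.8 CPM with OE and between 78.2 and 79.1 CPM with the vector, and in CFPAC1 to between 94.5 and 99.9 CPM with AZA and between 147 and 159 CPM with DMSO. The part of these markers in the results was not tested.

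**Figure D1:**
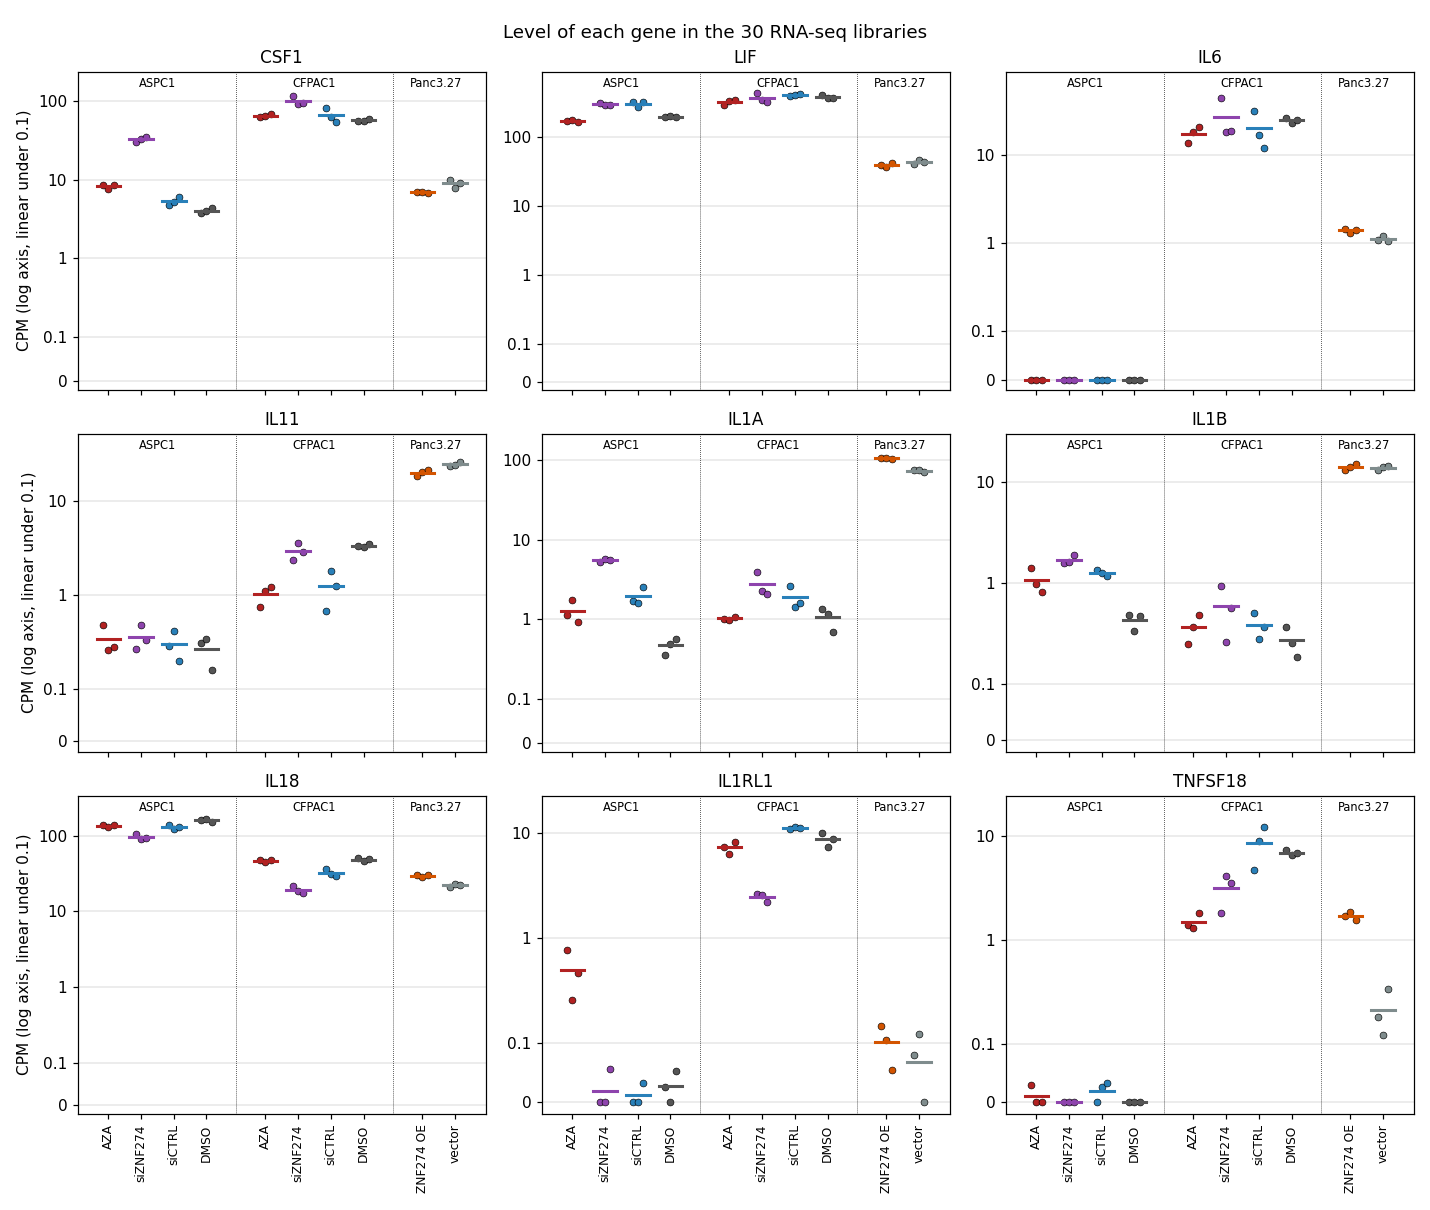
Level of each of the 9 genes in every RNA-seq library, in CPM scaled within a line, on an axis that is logarithmic above 0.1 CPM and linear below it. Points are the 3 libraries of a group and bars their means. IL6 lies at 0 in all 12 ASPC1 libraries, IL1A and IL11 are highest in Panc3.27, and IL1RL1 and TNFSF18 are highest in CFPAC1.

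The members called by edgeR's quasi-likelihood test (Benjamini-Hochberg adjusted p below 0.05) were counted beside the share of all tested genes called. With AZA against DMSO, 3 of the 6 tested members were higher and 2 lower in ASPC1, where 17.2% of all tested genes were higher and 18.6% lower. In CFPAC1 the same comparison called none of the 9 higher and 2 lower, beside 12.2% higher and 13.5% lower among all genes. With siCTRL against DMSO, 4 of 6 were higher and 1 lower in ASPC1, beside 15.9% and 14.2%, and none of 9 was higher and 2 were lower in CFPAC1, beside 7.3% and 8.22%. With OE against vector in Panc3.27, 3 of 8 were higher and 2 lower, beside 19.8% and 17.1%. Of the 3, TNFSF18 had few vector counts and passed the low-count filter through its OE libraries. Between the lines in DMSO, ASPC1 was higher than CFPAC1 for 1 of 9 and lower for 7, where 33.8% of all genes were higher and 40.0% lower. Of the 7, IL6, IL1RL1 and TNFSF18 had too few counts in ASPC1 to be tested there and entered this fit through other lines. That count is therefore not read as a skew of the members. The shares given here are also the background for counts of listed genes in the same comparisons.

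The siZNF274 comparisons helped to choose the members, so nothing is read from their counts: 2 of 6 higher and 1 lower in ASPC1, beside 21.5% and 24.2% of all genes, and 2 of 9 higher and 3 lower in CFPAC1, beside 11.6% and 13.2%. The members left out of a line's fit for low counts were IL6, IL1RL1 and TNFSF18 in ASPC1 and IL1RL1 in Panc3.27. The AZA and siCTRL comparisons of a line share their DMSO libraries, and the siCTRL libraries serve in both siRNA comparisons.

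**Figure D2:**
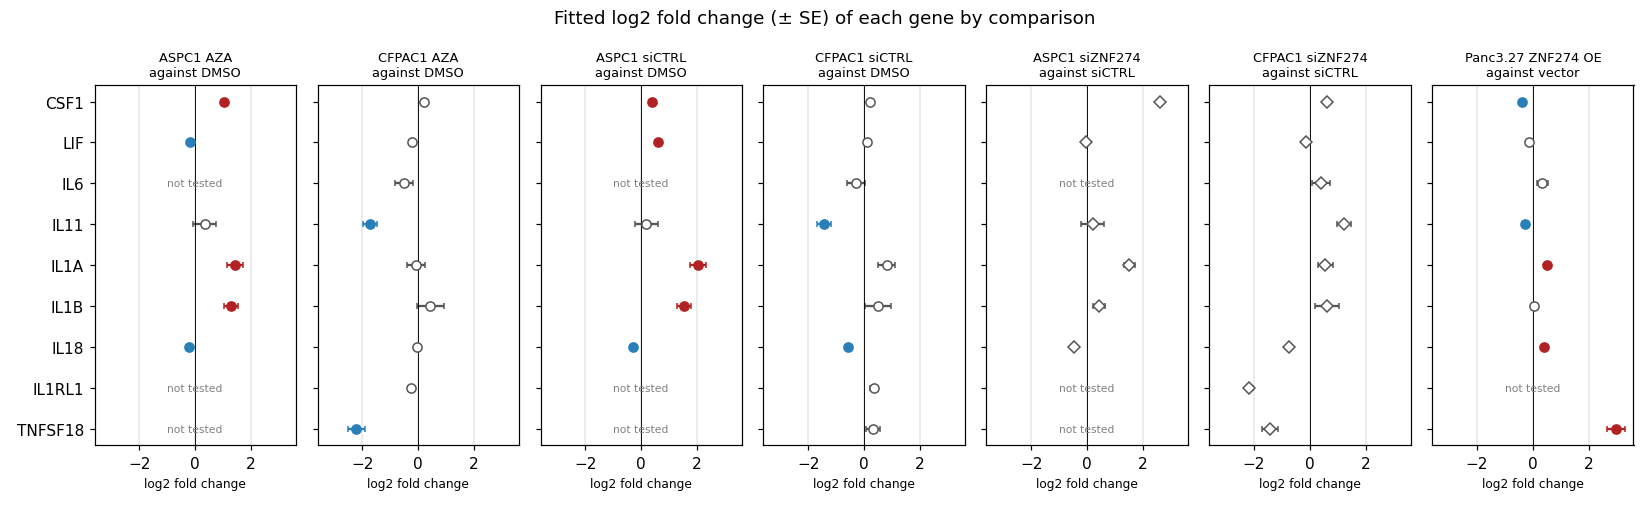
Fitted log2 fold change of each gene, the first-named group over the second, with its SE as a bar. Red points were called higher and blue points lower at an edgeR adjusted p below 0.05, open circles were not called, and open diamonds are the siZNF274 comparisons, shown without a call. TNFSF18 has its lowest value, -2.21, with AZA in CFPAC1 and its highest, 2.97, with OE in Panc3.27. In Panc3.27 it passed the low-count filter through its OE libraries, so that call is not read.

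IL6, the fever and acute-phase cytokine, had 0 counts in all 12 ASPC1 libraries, and a floor of 3 counts per library allows up to 0.0983 CPM. In the scaling over all 30 libraries, ASPC1 with DMSO was at least 292-fold lower than CFPAC1 with DMSO, whose mean was 24.6 CPM. Panc3.27 lay between the 2 lines, with 1.47, 1.32 and 1.43 CPM with OE against 1.08, 1.21 and 1.06 CPM with the vector. All 3 OE libraries lay above the vector libraries, and the difference was not called (1.25-fold, 95% interval 0.961 to 1.64, edgeR adjusted p = 0.212).

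In CFPAC1, IL6 was 13.9, 18.5 and 20.95 CPM with AZA against 26.85, 23.3 and 25.2 CPM with DMSO. The groups did not overlap, and the difference was not called (0.708-fold, 95% interval 0.458 to 1.09, edgeR adjusted p = 0.28). It was called without the low-count filter (edgeR adjusted p = 5.03e-08) and with only the 2 groups fitted (0.00863). With siCTRL, IL6 overlapped DMSO (0.821-fold, edgeR adjusted p = 0.622), although the test without the filter called it lower (edgeR adjusted p = 0.00641). The spread was wide in both siRNA groups. Under the siZNF274 label IL6 had 44.8, 18.4 and 18.8 CPM, and the 3 siCTRL libraries 32.3, 17.2 and 12.3 CPM, in the order of their numbers. Replicate 1 was the highest of its group in both.

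The same numbering recurred in other members. IL18 and IL1B also had replicate 1 highest in both groups, and IL11 had it lowest in both, with values given where each gene is described or, for IL1B, at 0.936, 0.262 and 0.576 CPM with siZNF274 and 0.508, 0.281 and 0.371 CPM with siCTRL. CSF1 was 116.6, 90.5 and 92.6 CPM in the siZNF274 libraries and 80.1, 61.9 and 54.3 CPM in the siCTRL libraries. IL1A was 3.97, 2.26 and 2.06 CPM with siZNF274 and 2.615, 1.41 and 1.62 CPM with siCTRL. Replicate 1 was again highest for both genes in both groups. TNFSF18 went the other way, with replicate 1 lowest in both groups, at 1.82, 4.19 and 3.53 CPM with siZNF274 and 4.75, 9.11 and 12.3 CPM with siCTRL. LIF did not share the order: replicate 1 was highest with siZNF274, at 438, 347 and 318 CPM, and lowest with siCTRL, at 392.3 CPM against 406 and 414 CPM. Whether the numbers mark a shared culture or day is not given in the labels.

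**Figure D3:**
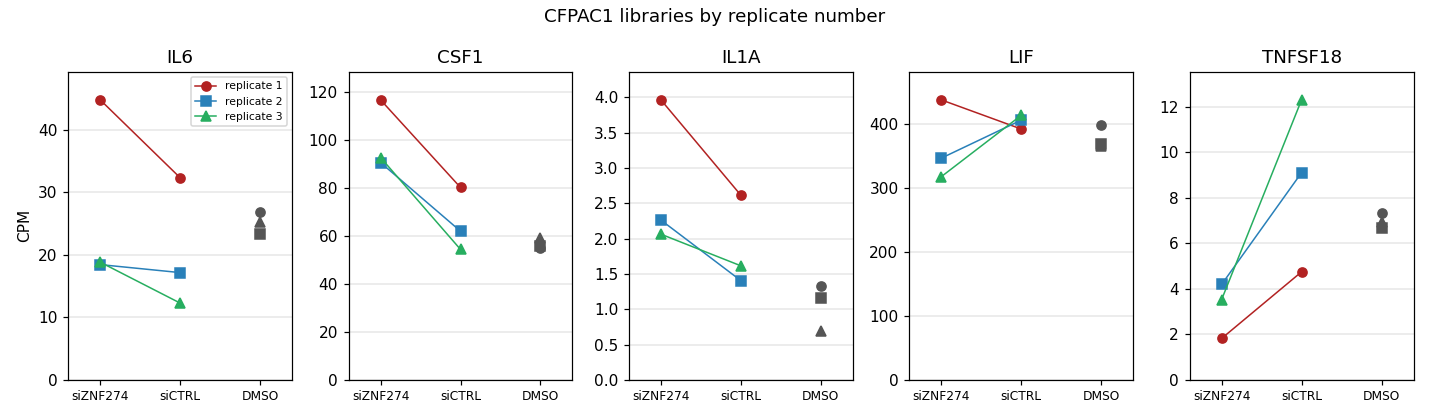
CPM of 5 genes in the CFPAC1 libraries labelled siZNF274, the siCTRL libraries and, in grey, the DMSO libraries, with lines joining equal replicate numbers of the siRNA groups. Replicate 1 is the highest siRNA library of its group for IL6, CSF1 and IL1A and the lowest for TNFSF18.

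The IL6 window of 250 bases before its RefSeq start (GRCh38.p14) holds the only match to the NF-kB pattern among the 8 promoter windows found for 6 of the 9 members, GGGATTTTCC, 73 to 64 bases before the start. Of 35116 promoter windows of that length, 5.21% hold such a match on either strand. A match is a description of letters and says nothing of binding here.

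IL11, a gp130 cytokine studied for fibrosis, was lower in CFPAC1 with both treatments set against DMSO. It was 0.755, 1.09 and 1.21 CPM with AZA against 3.38, 3.26 and 3.47 CPM with DMSO, a fall to 0.303-fold (log2 fold change -1.72, SE 0.259, edgeR adjusted p = 0.000144). With siCTRL it was 0.685, 1.8 and 1.24 CPM, 0.372-fold of DMSO (log2 fold change -1.43, SE 0.254, edgeR adjusted p = 0.000965). Neither treated group overlapped the DMSO libraries, which both comparisons share. Libraries under the siZNF274 label, at 2.4, 3.57 and 2.85 CPM, all lay above siCTRL, 2.35-fold, and their range covered that of DMSO.

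In ASPC1, IL11 stood at 6 to 17 counts per library in all 4 groups, which overlapped. Its means were 0.343 CPM with AZA, 0.359 CPM with siZNF274, 0.300 CPM with siCTRL and 0.268 CPM with DMSO. Neither the AZA comparison (1.27-fold, edgeR adjusted p = 0.56) nor siCTRL (1.14-fold, 95% interval 0.64 to 2.03, edgeR adjusted p = 0.789) was called. In Panc3.27, where IL11 was highest, OE lowered it to 20.2 ± 1.56 CPM, against 24.9 ± 1.21 CPM with the vector (SD, n = 3 each). The fall to 0.813-fold was called (edgeR adjusted p = 0.00395), and all 3 OE libraries lay below the vector libraries.

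The IL11 window before its RefSeq start (chr19:55370464-55370713, minus strand) is shown with the AP-1 pattern TGANTCA in capitals, because the AP-1 subunits are set beside IL11 in the next paragraph. The window has 16 CpG sites, where the median over all windows is 11, and 6.57% of all windows hold this AP-1 pattern on either strand.
IL11: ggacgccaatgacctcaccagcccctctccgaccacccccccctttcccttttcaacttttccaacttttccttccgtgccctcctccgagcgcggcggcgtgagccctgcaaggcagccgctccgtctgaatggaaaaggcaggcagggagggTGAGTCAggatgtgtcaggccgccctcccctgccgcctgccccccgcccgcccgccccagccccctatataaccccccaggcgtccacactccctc

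Of the 10 AP-1 subunits, none was higher and 2 were lower with AZA in CFPAC1, with a median log2 fold change of -0.3 over the 10 tested, against 0.01 over all genes. FOSL1, a Fos family subunit, was 232 CPM with AZA and 389 CPM with DMSO, 0.597-fold (edgeR adjusted p = 6.52e-08). The other lower subunit was FOSL2 (0.796-fold, edgeR adjusted p = 0.00196). With siCTRL in CFPAC1, 4 AP-1 subunits were lower and none higher, again with a median of -0.3. They were JUND (0.701-fold of DMSO), MAFF (0.787-fold), FOSL2 (0.791-fold) and, changed least, FOSL1 (0.817-fold, edgeR adjusted p = 0.000702). With OE in Panc3.27, 4 of 10 were higher and 1 lower, and the 1 lower gene was FOSL1 (0.806-fold, edgeR adjusted p = 0.00148). The levels of FOSL1 and IL11 in other groups are given as a description. In the CFPAC1 libraries labelled siZNF274, FOSL1 stood at 247 CPM against 318 CPM with siCTRL, while IL11 stood above. Panc3.27 with the vector had 48.6 CPM of FOSL1, against 389 CPM in CFPAC1 with DMSO, and more IL11. The relation of FOSL1 to IL11 was not tested.

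LIF, a gp130 cytokine that sustains stem cells in mouse and is secreted by pancreatic tumour cells, was read by 1337 or more counts in every library. In ASPC1 it was 172, 177 and 166 CPM with AZA against 195, 202 and 193 CPM with DMSO. All 3 AZA libraries lay below, and the fall to 0.873-fold was called (edgeR adjusted p = 0.0171), but not without AZA replicate 3 (edgeR adjusted p = 0.0745) or without DMSO replicate 2 (0.0813). With siCTRL it was 317, 271 and 321 CPM, 1.54-fold of DMSO (edgeR adjusted p = 9.28e-07, higher in 3 of 3 libraries). Under the siZNF274 label it overlapped siCTRL, at 309.9, 285 and 293 CPM.

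In CFPAC1, LIF was 323 ± 27.04 CPM with AZA, 404 ± 10.9 CPM with siCTRL and 378 ± 18.1 CPM with DMSO (SD, n = 3 each). Neither the AZA comparison (0.854-fold, edgeR adjusted p = 0.0781) nor siCTRL (1.07-fold, 95% interval 0.945 to 1.21, edgeR adjusted p = 0.541) was called. AZA was called lower without the low-count filter (edgeR adjusted p = 0.00136) and with only the 2 groups fitted (0.0168). The siCTRL effect on LIF differed between the lines by 0.54 on the log2 scale, higher in ASPC1 (SE 0.115, edgeR interaction, adjusted p = 0.0013). In that interaction 10.5% of all genes were called higher in ASPC1 and 7.32% lower. In Panc3.27, LIF was 39.2 ± 2.78 CPM with OE and 43.3 ± 3.43 CPM with the vector, which was not called (0.904-fold, edgeR adjusted p = 0.106). Without OE replicate 3 (edgeR adjusted p = 0.0455) or vector replicate 1 (0.0149) it was called lower.

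Of the 8 gp130 family receptors listed, 7 were tested within each line. With siCTRL in ASPC1, 4 were called higher and none lower, with LIFR, the LIF receptor, at 13.9 CPM against 8.48 CPM with DMSO (1.64-fold, edgeR adjusted p = 2.5e-06). In CFPAC1 the list went both ways, with 2 higher, 1 lower and a median log2 fold change of -0.08. LIFR was 185 CPM with siCTRL against 125 CPM with DMSO (1.48-fold, edgeR adjusted p = 1.63e-05), IL6R, the IL6 receptor, was 1.34-fold of DMSO (edgeR adjusted p = 0.00995), and IL31RA, the IL31 receptor, was 23.9 CPM against 35.5 CPM (0.675-fold, edgeR adjusted p = 3.26e-05). With AZA, 1 of the 7 was higher and 3 lower in CFPAC1, and 2 were higher and 1 lower in ASPC1. In CFPAC1, LIFR fell to 99.2 CPM, 0.797-fold of DMSO (edgeR adjusted p = 0.0016), while IL27RA was 1.27-fold (edgeR adjusted p = 0.0495). The 1 lower in ASPC1 was IL6R, at 31.7 CPM against 41.1 CPM with DMSO (0.771-fold, edgeR adjusted p = 0.00132). IL27RA (1.39-fold, edgeR adjusted p = 0.0131) and IL11RA (1.32-fold, edgeR adjusted p = 0.0486) were higher there.

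Set against siCTRL, all 7 tested gp130 receptors passed the call threshold upward in the CFPAC1 libraries labelled siZNF274, beside 11.6% of all genes. Their median log2 fold change was 0.53, against -0.01 over all genes. The lists were chosen with earlier results known, so these counts are a description and nothing is read from them. IL6R averaged 35.9 CPM against 21.3 CPM, and the shared subunit IL6ST 567 CPM against 392 CPM. In ASPC1, 5 of 7 passed the threshold upward and 1 downward, beside 21.5% and 24.2% of all genes. The 1 downward was IL6R, at 34.0 CPM against 41.3 CPM in groups that overlapped. There IL6ST was at 213 CPM against 162 CPM and the IL11 receptor IL11RA at 3.34 CPM against 1.73 CPM. SOCS3, a STAT3 target that feeds back on gp130, averaged 10.7 CPM against 6.16 CPM in ASPC1, and 120 CPM against 103 CPM in CFPAC1, where the groups overlapped. With OE in Panc3.27, 11 of the 20 JAK-STAT3 genes were higher and 3 lower, beside 19.8% and 17.1% of all tested genes. Among the 11 were SOCS3 (49.2 CPM against 39.6 CPM, 1.24-fold, edgeR adjusted p = 0.000784) and the kinase PIM1 (1.83-fold, edgeR adjusted p = 4.47e-07).

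CSF1, the macrophage growth factor, was 8.64, 7.57 and 8.51 CPM with AZA in ASPC1 against 3.76, 4.0 and 4.37 CPM with DMSO, its lowest levels in any group. All 3 AZA libraries lay above DMSO, 2.04-fold (log2 fold change 1.03, SE 0.102, edgeR adjusted p = 1.09e-06). In CFPAC1 it was 62.8, 64.1 and 67.1 CPM with AZA against 54.7, 55.5 and 59.1 CPM with DMSO, which did not overlap and was not called (1.15-fold, 95% interval 0.982 to 1.34, edgeR adjusted p = 0.225). It was called higher without the low-count filter (edgeR adjusted p = 0.026) and with only the 2 groups fitted (0.0114). The AZA effect differed between the lines by 0.82 on the log2 scale (SE 0.176, edgeR interaction, adjusted p = 0.00116). In that interaction 8.65% of all genes were called higher in ASPC1 and 8.66% lower.

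With siCTRL in ASPC1, CSF1 was 4.78, 5.23 and 5.96 CPM, 1.31-fold of DMSO (edgeR adjusted p = 0.0114). The call was lost without siCTRL replicate 3 (edgeR adjusted p = 0.0602) and when only the 2 groups were fitted (0.0515). In CFPAC1, siCTRL overlapped DMSO (1.16-fold, edgeR adjusted p = 0.237), though it was called higher without the low-count filter (edgeR adjusted p = 0.0201). The ASPC1 libraries labelled siZNF274 had 30.4, 33.2 and 34.7 CPM, 6.16-fold of siCTRL, and those of CFPAC1 were 1.53-fold of siCTRL. In the scaling over 30 libraries, ASPC1 with siZNF274 lay between the other ASPC1 groups and the CFPAC1 groups, with no overlap on either side. In Panc3.27 it was 6.98, 6.95 and 6.71 CPM with OE against 9.90, 7.88 and 9.09 CPM with the vector, a fall to 0.769-fold (edgeR adjusted p = 0.00852).

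CSF1R, its receptor, had at most 5 counts in any ASPC1 library and at most 6 in any CFPAC1 library. In Panc3.27 it was 5.15 CPM with OE and 4.73 CPM with the vector, which was not called (1.09-fold, edgeR adjusted p = 0.455). IL34, another ligand of CSF1R, was 7.96 CPM with OE against 3.10 CPM with the vector (2.56-fold, edgeR adjusted p = 9.68e-07). The leukocyte marker list, 13 genes, summed to between 138 and 142 CPM with OE and between 128 and 136 CPM with the vector in Panc3.27, and CD3D, CD14, ITGAM, LCP1 and CORO1A averaged over 1 CPM with OE. It summed to at most 10.6 CPM in any ASPC1 library and 30.9 CPM in any CFPAC1 library. Their part in these results was not tested.

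IL1A, the alarmin form of interleukin 1, was 1.116, 1.72 and 0.929 CPM with AZA in ASPC1 against 0.358, 0.479 and 0.559 CPM with DMSO, its lowest group, 2.69-fold (log2 fold change 1.43, SE 0.286, edgeR adjusted p = 0.000991). With siCTRL it was 1.71, 1.60 and 2.52 CPM, 4.12-fold of DMSO (log2 fold change 2.04, SE 0.272, edgeR adjusted p = 3.06e-05). Both treated groups lay wholly above DMSO. Under the siZNF274 label it stood higher again, at 5.19, 5.77 and 5.50 CPM, 2.85-fold of siCTRL.

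In CFPAC1, IL1A was 1.01, 0.979 and 1.07 CPM with AZA against 1.33, 1.16 and 0.689 CPM with DMSO, which overlapped (0.961-fold, 95% interval 0.62 to 1.49, edgeR adjusted p = 0.922). The AZA effect differed between the lines by 1.48 on the log2 scale (SE 0.465, edgeR interaction, adjusted p = 0.0265), and that call was lost without ASPC1 AZA replicate 2 (edgeR adjusted p = 0.11), ASPC1 DMSO replicate 1 (0.0786), CFPAC1 DMSO replicate 1 (0.0756) or CFPAC1 DMSO replicate 2 (0.0621). With siCTRL all 3 CFPAC1 libraries lay above DMSO without a call (1.77-fold, 95% interval 1.17 to 2.67, edgeR adjusted p = 0.0798), while DESeq2 (adjusted p = 0.0474) and edgeR without the low-count filter (0.0033) called it higher. In Panc3.27, where IL1A was highest, it was 107, 105.9 and 104.5 CPM with OE against 75.7, 75.2 and 70.6 CPM with the vector, 1.43-fold (edgeR adjusted p = 1.24e-06).

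IL1B, the form made by activated macrophages and by some tumour cells, also rose with AZA and siCTRL in ASPC1. It was 1.40, 0.989 and 0.826 CPM with AZA against 0.486, 0.338 and 0.480 CPM with DMSO, 2.43-fold (log2 fold change 1.28, SE 0.256, edgeR adjusted p = 0.000983). With siCTRL it was 1.36, 1.26 and 1.18 CPM, 2.90-fold of DMSO (edgeR adjusted p = 0.00024). Those labelled siZNF274 had 1.58, 1.62 and 1.91 CPM, all above those of siCTRL. In CFPAC1 it had 7 to 34 counts per library, its groups overlapped, and neither AZA (1.35-fold, 95% interval 0.712 to 2.58, edgeR adjusted p = 0.544) nor siCTRL (1.41-fold, edgeR adjusted p = 0.548) was called. In Panc3.27 it was 14.2 ± 0.898 CPM with OE and 13.9 ± 0.661 CPM with the vector (1.02-fold, 95% interval 0.922 to 1.13, edgeR adjusted p = 0.778).

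IL1A and IL1B lie 45.3 kb apart on chromosome 2, and their promoter windows are shown because both genes rose with AZA in ASPC1. Capitals mark matches to the AP-1 pattern given for IL11 and to the TATA box pattern TATAAA, both searched on either strand. The IL1A window (chr2:112784494-112784743, minus strand) ends at the start of the counted gene, with 7 CpG sites, and the IL1B window (chr2:112836780-112837029, minus strand) has 1 CpG and no match to either pattern.
IL1A: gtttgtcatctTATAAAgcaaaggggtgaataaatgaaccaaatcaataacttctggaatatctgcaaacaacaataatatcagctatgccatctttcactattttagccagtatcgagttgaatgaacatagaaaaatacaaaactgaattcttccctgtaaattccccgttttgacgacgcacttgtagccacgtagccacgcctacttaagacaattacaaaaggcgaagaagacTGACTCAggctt
IL1B: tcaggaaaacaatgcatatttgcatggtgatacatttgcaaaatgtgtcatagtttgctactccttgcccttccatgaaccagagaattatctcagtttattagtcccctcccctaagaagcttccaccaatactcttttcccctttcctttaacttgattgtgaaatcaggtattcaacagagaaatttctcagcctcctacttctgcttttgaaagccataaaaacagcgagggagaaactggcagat

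The AP-1 match of IL1A lies 12 to 6 bases before this start, and the overlapping window of another RefSeq start of IL1A has 2 AP-1 matches, of which 1 is this same site. The TATA box pattern was found in 10.7% of all windows.

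Of the 9 other interleukin 1 family ligands and antagonists listed, 3 were tested in ASPC1, and IL37, a suppressor of inflammation 127 kb from IL1A, was 1.65 CPM with AZA against 0.500 CPM with DMSO (3.28-fold, edgeR adjusted p = 0.000225). IL1RN, the receptor antagonist, was 0.941 CPM with AZA and 0.827 CPM with DMSO in ASPC1, which was not called (1.13-fold, edgeR adjusted p = 0.692). In Panc3.27 it was 19.4 CPM with OE against 11 CPM with the vector (1.76-fold, edgeR adjusted p = 1.96e-06). In the libraries labelled siZNF274 it was below siCTRL in both lines, at 0.231 CPM against 0.940 CPM in ASPC1 and 0.333 CPM against 0.769 CPM in CFPAC1.

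The receptor IL1R1 was 2.94 CPM with AZA against 1.36 CPM with DMSO in ASPC1 (2.16-fold, edgeR adjusted p = 0.000375), and IL1RAP was 8.11 CPM against 10.9 CPM (0.742-fold, edgeR adjusted p = 0.00172). IL1RAP was higher with siCTRL than with DMSO in both lines, 1.68-fold in ASPC1 (edgeR adjusted p = 7.4e-06) and 1.51-fold in CFPAC1 (edgeR adjusted p = 0.000107). Of the 15 interleukin 1 receptor signalling genes, 3 were higher and 3 lower with AZA in ASPC1, with a median log2 fold change of -0.08, and none was higher and 3 were lower in CFPAC1, with a median of 0.11. The ASPC1 counts lie near the shares of all genes called there.

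IL18, an inducer of interferon gamma that epithelial cells store as a precursor, was highest in ASPC1. There it was 139.9, 132 and 136 CPM with AZA against 159, 168 and 149.9 CPM with DMSO, 0.856-fold (edgeR adjusted p = 0.00888, lower in 3 of 3 libraries). That call was lost without DMSO replicate 2 (edgeR adjusted p = 0.0634). With siCTRL it was 138, 123 and 131 CPM, 0.823-fold of DMSO (edgeR adjusted p = 0.00251). Under the siZNF274 label it had 104, 91.3 and 92.2 CPM, 0.734-fold of siCTRL.

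In CFPAC1, IL18 with AZA overlapped DMSO, at 46.8 ± 1.39 CPM against 48.3 ± 2.41 CPM (0.97-fold, 95% interval 0.872 to 1.08, edgeR adjusted p = 0.723). With siCTRL it was 35.9, 30.8 and 29.5 CPM against 50.3, 45.6 and 48.9 CPM with DMSO, 0.665-fold (edgeR adjusted p = 7.5e-05). Under that of siZNF274 it was lower again, at 21.5, 18.6 and 17.7 CPM, 0.6-fold of siCTRL. In Panc3.27 it was higher with OE, at 29.8, 28.0 and 30.4 CPM against 20.9, 23.0 and 22.6 CPM with the vector, 1.33-fold (edgeR adjusted p = 0.000169).

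CASP1, the protease that cuts IL1B and IL18, had 1 count in all 12 ASPC1 libraries together. In CFPAC1 it was 2.27 CPM with AZA and 1.66 CPM with DMSO, which was not called (1.36-fold, edgeR adjusted p = 0.119), and in Panc3.27 it was 1.78 CPM with OE and 1.70 CPM with the vector (1.05-fold, edgeR adjusted p = 0.825). In ASPC1, the inflammasome sensor NLRP3 was 3.18 CPM with AZA against 8.97 CPM with DMSO (0.356-fold, edgeR adjusted p = 3.42e-08), and the adaptor PYCARD was 0.598-fold (edgeR adjusted p = 8.09e-05). The inflammasome and processing list counted 3 higher and 4 lower of 11 tested in that comparison, with a median log2 fold change of 0.05.

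The siCTRL comparison of CFPAC1 also held 24 higher and none lower of 25 interferon-stimulated genes, with a median log2 fold change of 1.3, against 0.01 over all genes. IFI6 was 96.7 CPM with siCTRL against 14.5 CPM with DMSO (6.69-fold, edgeR adjusted p = 1.4e-06). In ASPC1, 2 of 21 were higher and 7 lower, with a median of -0.27. The part of this in the siCTRL values of the cytokines was not tested. Between siCTRL and DMSO, transfection and solvent cannot be told apart.

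IL1RL1 was highest in CFPAC1, at 7.37, 6.31 and 8.22 CPM with AZA, 10.8, 11.2 and 11.2 CPM with siCTRL and 10.06, 7.34 and 8.80 CPM with DMSO. Neither AZA (0.836-fold, 95% interval 0.711 to 0.983, edgeR adjusted p = 0.126) nor siCTRL (1.27-fold, 95% interval 1.08 to 1.49, edgeR adjusted p = 0.0579) was called against DMSO, though all 3 siCTRL libraries lay above DMSO. AZA was called lower without DMSO replicate 2 (edgeR adjusted p = 0.0404). siCTRL was called higher without DMSO replicate 1 (edgeR adjusted p = 0.0239), without the low-count filter (0.0251) and by DESeq2 (0.0493). The libraries labelled siZNF274 had 2.62, 2.57 and 2.18 CPM, the lowest of CFPAC1, 0.222-fold of siCTRL. This value is among those that chose the gene.

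In ASPC1, IL1RL1 was close to 0 except with AZA. It had 27, 10 and 18 counts in the 3 AZA libraries, 0, 0 and 2 in those labelled siZNF274, 0, 0 and 1 with siCTRL, and 1, 0 and 2 with DMSO. The summed 55 counts with AZA against 3 with DMSO give a ratio of 18.3, with an exact 95% interval of 5.96 to 91.6 that covers counting error only. The gene missed the filter on low counts. Without that filter the log2 fold change was 4.04. Its p-value is not given, since leaving out the filter lowered p-values at an unchanged fold change, as for IL6 with AZA in CFPAC1. In the fit over both lines, its CFPAC1 counts carried the gene past the filter, so that fit is given without a p-value. There the AZA effect in ASPC1 exceeded that in CFPAC1 by 4.3 on the log2 scale (SE 0.655). Even so, the AZA libraries of ASPC1, at 0.274 to 0.810 CPM in the scaling over 30 libraries, lay below every CFPAC1 group. Panc3.27 had 5, 4 and 2 counts with OE and 3, 5 and 0 with the vector.

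IL33, the ligand of IL1RL1, had 1 count over the 12 ASPC1 libraries, 6 over the 12 CFPAC1 libraries and 1 over the 6 Panc3.27 libraries, so its expression was not detectable at this depth beyond at most 2 counts in a library. The co-receptor IL1RAP was present in all 3 lines. In CFPAC1 it was 34.2 CPM in the libraries labelled siZNF274, against 21.3 CPM with siCTRL.

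IL1RL1 (ENSG00000115602.17, chromosome 2, 102311502 to 102352037, hg38) lies almost wholly within the span that the count table gives IL18R1, the IL18 receptor, with 40.5 kb shared. No source at hand states how reads in the shared stretch were counted, and values of both genes carry that uncertainty. With AZA in ASPC1, IL18R1 was 0.405 CPM against 0.383 CPM with DMSO (1.05-fold, edgeR adjusted p = 0.91). In the CFPAC1 libraries labelled siZNF274 it was 3.91 CPM against 3.38 CPM with siCTRL, which overlapped. The neighbours IL1R1, 132 kb away, and IL1R2, 283 kb away, were 45.9 against 36.4 CPM and 2.16 against 3.71 CPM in that comparison.

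The 2 RefSeq promoter windows of IL1RL1 are shown because the gene was detected in ASPC1 mainly with azacitidine, which acts on CpG methylation, and because an H3K9me3 peak lies between the 2 starts. The distal window (chr2:102311313-102311562, plus strand) has 1 CpG site and a TATA box match, in capitals, 29 to 24 bases before the start. The proximal window (chr2:102337007-102337256, plus strand) has 0 CpG sites and an AP-1 match. The counts do not separate the starts.
IL1RL1 distal: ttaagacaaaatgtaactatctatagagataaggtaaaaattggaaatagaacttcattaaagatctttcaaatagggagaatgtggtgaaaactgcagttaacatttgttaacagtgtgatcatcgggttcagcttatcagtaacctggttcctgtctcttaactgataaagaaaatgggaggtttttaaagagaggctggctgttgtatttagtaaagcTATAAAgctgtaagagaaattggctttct
IL1RL1 proximal: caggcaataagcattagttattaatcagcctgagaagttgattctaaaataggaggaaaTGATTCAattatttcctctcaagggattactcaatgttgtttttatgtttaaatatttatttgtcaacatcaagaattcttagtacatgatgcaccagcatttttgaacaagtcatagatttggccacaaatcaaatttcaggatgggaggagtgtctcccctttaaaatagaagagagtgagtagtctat

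TNFSF18, the GITR ligand, was absent or nearly so in ASPC1, with 3 counts over its 12 libraries. In the scaling over 30 libraries, ASPC1 with DMSO, at 0 counts, was at least 81.2-fold lower than CFPAC1 with DMSO, at 6.86 CPM, taking the floor of 3 counts per library. In CFPAC1 it was 1.40, 1.33 and 1.82 CPM with AZA against 7.34, 6.67 and 6.94 CPM with DMSO, with no overlap. The fall to 0.217-fold was called (log2 fold change -2.21, SE 0.312, 95% interval 0.142 to 0.331, edgeR adjusted p = 8.54e-05). siCTRL, at 4.75, 9.11 and 12.3 CPM, overlapped DMSO (1.25-fold, edgeR adjusted p = 0.476) and was called higher without siCTRL replicate 1 (edgeR adjusted p = 0.0358). Those labelled siZNF274 all lay below siCTRL, 0.368-fold, which is among the values that chose the gene.

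In Panc3.27, TNFSF18 had 59, 69 and 57 counts with OE against 7, 5 and 14 counts with the vector, or 1.73, 1.86 and 1.57 CPM against 0.185, 0.124 and 0.338 CPM. The fitted rise was 7.82-fold (log2 fold change 2.97, SE 0.309, 95% interval 5.14 to 11.9). The vector counts were few, and the OE libraries carried the gene past the low-count filter, so its p-value is not given or read. OE in Panc3.27 reached the level of AZA in CFPAC1, whose libraries it overlapped in the scaling over 30 libraries. Its receptor TNFRSF18 was 3.67 CPM with OE and 2.82 CPM with the vector, which was not called (1.30-fold, edgeR adjusted p = 0.144), and 0.675 CPM with AZA and 0.428 CPM with DMSO in CFPAC1 (1.57-fold, edgeR adjusted p = 0.14).

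Among the 17 other TNF superfamily ligands, 13 were tested in Panc3.27, 3 higher and 2 lower, with a median log2 fold change of 0.06 against 0.01 over all genes. The lymphotoxins LTB, at 5.20 CPM with OE against 1.58 CPM with the vector (log2 fold change 1.71, edgeR adjusted p = 2.29e-05), and LTA, 2.10-fold (edgeR adjusted p = 0.000178), were among the 3 higher. With AZA in CFPAC1, 3 of 12 were higher and none lower, so TNFSF18 moved the opposite way to those called, among them TNFSF14 (2.10-fold, edgeR adjusted p = 0.0213). The neighbour TNFSF4, 133 kb away, was 0.642 CPM in the CFPAC1 libraries labelled siZNF274 and 0.537 CPM with siCTRL, which overlapped.

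The TNFSF18 window (chr1:173050942-173051191, minus strand), which ends at the start of the counted gene, is shown because TNFSF18 fell with azacitidine and rose with OE. It has 3 CpG sites and no match to the 3 patterns searched.
TNFSF18: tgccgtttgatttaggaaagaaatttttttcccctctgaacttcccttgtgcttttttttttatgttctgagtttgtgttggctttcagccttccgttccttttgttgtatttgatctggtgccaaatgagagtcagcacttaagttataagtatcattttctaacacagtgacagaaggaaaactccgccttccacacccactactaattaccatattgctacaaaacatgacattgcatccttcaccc

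Between the lines in DMSO, in the scaling over 30 libraries, CSF1 was 4.25 CPM in ASPC1 and 55.4 CPM in CFPAC1, 13-fold lower in ASPC1 (edgeR adjusted p = 2.73e-23). IL11 was 11.6-fold lower (edgeR adjusted p = 3.45e-13), LIF 1.79-fold lower (edgeR adjusted p = 2.71e-11) and IL1A 2.12-fold lower (edgeR adjusted p = 0.00594). IL18 was higher in ASPC1, 167 CPM against 47.3 CPM, 3.52-fold (edgeR adjusted p = 9.34e-22). IL1B was not called (1.71-fold, edgeR adjusted p = 0.0658), but was without ASPC1 DMSO replicate 2 (edgeR adjusted p = 0.0459) or CFPAC1 DMSO replicate 1 (0.0337). IL1RL1 had 3 counts against 996, a ratio of 0.00329 with an exact 95% interval of 0.000677 to 0.00963. The receptors differed as well, with LIFR at 8.91 CPM in ASPC1 and 122 CPM in CFPAC1 and IL1R1 at 1.42 CPM and 34.7 CPM (edgeR adjusted p = 2.26e-30 and 1.47e-25). SOCS3 was 6.78 CPM in ASPC1 and 102 CPM in CFPAC1 (edgeR adjusted p = 1.53e-22).

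In the authors' deposited list of H3K9me3 broad peaks of ASPC1, 4 of the 9 genes had a peak within the gene body or 5 kb of it, where 38.6% of all 36843 genes had one. Counting only peaks whose entry names the control hairpin, 3 of 9 had one, and 34.8% of all genes. CSF1 had a peak 4211 bases away, TNFSF18 one 3267 bases away and IL1A one 1881 bases away, each listed for both hairpin groups. IL1RL1 had the only peak in a gene body, where 30.7% of all genes have one, an intron peak at chr2:102326155-102332309 that covers 15.2% of the gene and is listed for the ZNF274 hairpin (shZNF274) alone. The authors' deposited list gives none of the 4 peaks as changed between hairpins, as for 63262 of its 63955 peaks, so this is no trait of the members. Of the 63955 peaks, 41136 are listed for both hairpin groups. IL18 had its nearest peak 130430 bases away, and IL11 and LIF were also more than 50 kb from one. The hairpin cells were not those of the siRNA libraries.

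The genes most like each member were ranked by Pearson's r of log2(CPM + 1) over 30 libraries after taking off each line's mean, among 13076 protein-coding genes. These are descriptions over libraries that share their groups. CSF1 was most like CMTM3 (r = 0.965) and ZNF529 (0.954), IL1A most like ITGA6 (0.947) and TSPYL2 (0.938), and IL18 most like ZBED2 (0.933) and NMNAT2 (0.928). TNFSF18 was most like SFTA2 (0.913) and IKZF3 (0.898), IL1B most like THBD (0.898), and LIF most like GALNT1 (0.897). IL11 was most like GCNT4 (0.863), and IL1RL1, after a gene not named here, was most like SCD5 (0.827) and PTAFR (0.815). IL6 was most like NR4A3 (0.811), CCN2 (0.758) and FOS (0.747), of which NR4A3 and FOS are early response genes.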

How the data were processed

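RNA was measured in 30 libraries of 3 pancreatic cancer lines. As deposited, the authors' table holds raw counts, whole numbers per gene and library. STAR 2.7.10b, FastQC and hg38 are named for RNA-seq, per the submitters' processing notes, and the library kit was stranded with ribosomal RNA removed, per the labels' protocols. What counted the reads, with which strand setting, was not found in the labels. The authors' H3K9me3 peak file, for which the submitters' processing notes name MACS2 and HOMER among other tools, carries a deposited score that is constant and was not used.

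Every line had its own fit in edgeR 4.0.16 (R 4.3.3) (filterByExpr, TMM factors, quasi-likelihood test), with p-values adjusted by Benjamini-Hochberg across the genes tested and a threshold of 0.05. The lines in DMSO were compared in 1 fit over 30 libraries, and the interactions come from 1 fit over 24. CPM are TMM-scaled within a line unless stated, and intervals are at 95%. The steps were tested on simulated data. Floors of 3 counts and counting intervals cover counting error only. Total counts ran between 31415743 and 43383141 per library, and 0 of 30 within-group pairs were identical.

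The members and lists were chosen with earlier results of these data known. The 18 lists held 235 entries, of which 234 matched the table. Every member is named, and from each list at most the 2 highest and the 2 lowest fold changes among genes that were called, did not overlap and averaged at least 1 CPM in a group, besides the receptors, ligands and feedback genes of the members. Genes near a member were added. Promoters are from RefSeq (GRCh38.p14), and 6 of 9 members had one. Same-numbered libraries deviated together, with correlations over 0.1 in all 3 pairs, for siCTRL against DMSO in ASPC1 (0.43, 0.14 and 0.38) and siZNF274 against siCTRL in CFPAC1 (0.46, 0.14 and 0.13). The replicate block changed no member's call in the first, and single calls were not compared in the second. DESeq2 1.42.0, other scalings, no filter, fits of 2 groups alone and leaving out each library were alternatives.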

Additional observations from a re-analysis of the deposited data

Results flagged for a closer look

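The response to the same treatment differed between ASPC1 and CFPAC1 by an edgeR interaction test (adjusted over all genes) for 3 members with AZA and 3 with siCTRL. Of all genes, 8.65% were called higher in ASPC1 and 8.66% lower with AZA, and 10.5% and 7.32% with siCTRL. Values are log2 differences, ASPC1 minus CFPAC1. With AZA, CSF1 differed by 0.82 (SE 0.176, edgeR adjusted p = 0.00116), IL11 by 2.06 (SE 0.517, edgeR adjusted p = 0.00529) and IL1A by 1.48 (SE 0.465, edgeR adjusted p = 0.0265). IL1RL1, with a difference of 4.3, is not among those 3. Its CFPAC1 counts carried it past the low-count filter, so its p-value is not given or read. IL1RL1 rests on 55 counts with AZA and 3 with DMSO in ASPC1, and IL11 on 38 and 30. The IL1A call was lost on leaving out any of 4 libraries, with edgeR adjusted p up to 0.11 without ASPC1 AZA replicate 2.

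With siCTRL, LIF differed by 0.54 (SE 0.115, edgeR adjusted p = 0.0013), IL11 by 1.63 (SE 0.531, edgeR adjusted p = 0.0318) and IL18 by 0.32 (SE 0.103, edgeR adjusted p = 0.0293). The IL11 call was lost without ASPC1 siCTRL replicate 2 (edgeR adjusted p = 0.178), ASPC1 DMSO replicate 3 (0.0956), CFPAC1 siCTRL replicate 1 (0.0505) or CFPAC1 DMSO replicate 3 (0.0501). The IL18 call was lost without any of 7 of the 12 libraries, with edgeR adjusted p up to 0.0909 without CFPAC1 siCTRL replicate 3. IL1A missed the threshold (1.23, edgeR adjusted p = 0.0555). It passed with DESeq2 (adjusted p = 0.0273), and in edgeR without the low-count filter (adjusted p = 0.00495), with the replicate block (0.0194), and without ASPC1 siCTRL replicate 2 (0.048), CFPAC1 DMSO replicate 3 (0.0274) or CFPAC1 siCTRL replicate 1 (0.0124). IL6 and TNFSF18 were left out, since ASPC1 had at most 2 counts in the groups compared.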

How the results depend on the processing

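Of 926 alternative values of members' fold changes, 869 were unchanged, 20 lost a call, 27 gained one and 10 changed sign. Unchanged values kept their direction and side of the threshold, except in the siZNF274 comparisons. There, unchanged means a shift below the SD between replicates, and lost or gained calls were not counted. Outside the siZNF274 comparisons, signs changed only on leaving out 1 library and for values that were not called. IL11 with siCTRL in ASPC1 ran between -0.12 and 0.39, and IL1A with AZA in CFPAC1 between -0.28 and 0.14. TNFSF18 with siCTRL in CFPAC1 ran between -0.01 and 0.62, and IL1B with OE between -0.03 and 0.05. The line difference of LIF with AZA ran between -0.03 and 0.09. With AZA in CFPAC1, members called higher and lower came to 1 and 4 (CSF1 higher, LIF and IL6 lower besides IL11 and TNFSF18) both without the low-count filter and with only the 2 groups fitted. With siCTRL in CFPAC1, members called higher came to 2 with the DESeq2 test, 3 without the filter and 2 with the replicate block (IL1A, edgeR adjusted p = 0.0239, and IL1RL1, 0.0416), and with only the 2 groups 758 genes were higher and 846 lower, against 1322 and 1488. The same numbers there mark no pairing that the labels give. In CFPAC1 with siZNF274, 4 members were higher without the filter. Leaving out 1 library gave 0 to 2 members lower with AZA in ASPC1, 1 to 2 higher in ASPC1 against CFPAC1, 1462 to 2458 genes higher with AZA in CFPAC1, 0 to 1 members higher with siCTRL in CFPAC1, 1565 to 2434 genes lower and 2 to 4 members higher with siZNF274 in CFPAC1, and 1 to 3 members higher in the line difference with siCTRL. With gene bodies alone, 1 member had an H3K9me3 peak, and 30.7% of all genes. The cause of these shifts was not tested. IL1B in ASPC1 and CFPAC1, IL11 in ASPC1 and IL1RL1 outside CFPAC1 had few counts, which limits their precision.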
